A study of Mus musculus with 18 samples.

Results

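Non-additive effects of deleting E2f1, E2f2 and E2f3 together with Myc were measured in mouse small-intestinal crypts, over all 18 of the 18 arrays of the study and all 18193 genes with a probe set of 1 gene symbol. For each gene the interaction was computed as the mean log2 signal of the joint loss, minus that of E2f1-3 loss, minus that of Myc loss, plus that of control. A gene was read from the probe set with the highest mean signal over the 18 arrays. An interaction of 0 means that the fold change of the joint loss equals the product of the fold changes of the single losses. A positive value means a higher signal in the joint loss than that product gives, and a negative value a lower one. Mice were 2 months old, the genes were deleted with Ah-cre, an inducible Cre that acts in the intestine, and crypts were collected 2 days after deletion. The E2f/Myc QKO group lacked Myc and all of E2f1, E2f2 and E2f3 (n = 5, called QKO here), the E2f TKO group lacked the E2f genes (n = 5), the Myc KO group lacked Myc (n = 4), and the control group kept all of these genes as far as the labels say (n = 4). Whether the controls carried Ah-cre or received its inducer, and whether any E2f allele was lost in the germline, is not given in the sources used here. Each array is labelled as a separate crypt sample, but no label names the animal, so p-values measure the spread between these samples.

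E2f1 to E2f3 encode transcription factors that bind the promoters of genes for entry into S phase and DNA replication, and pocket proteins of the retinoblastoma family restrain them. In the mouse intestine they are known as activators in dividing progenitors and, together with the retinoblastoma protein, as repressors in differentiating cells. Myc encodes a transcription factor that pairs with Max, binds E-box sequences and drives ribosome production and growth, and it lies downstream of Wnt signalling in crypts. The cell cycle genes of one network and the growth genes of the other are regulated in the same dividing cells, and E2f and Myc genes also regulate each other.

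The array medians were 6.14 to 6.26, and the correlation between arrays across probe sets was 0.973 to 0.996. Without detection calls, signals close to these medians could be background. Of 9 markers of crypt epithelium (stem cell, Paneth, cycling and general epithelial genes), the mean log2 signal was 11.82 to 12.33 in QKO, 11.47 to 12.38 in E2f TKO, 11.94 to 12.13 in Myc KO and 11.94 to 12.04 in control arrays. The arrays labelled E2f TKO 2 and 5 stand apart. Cyp1a1, whose promoter drives Ah-cre, read 5.05 and 4.91 there, against 12.66 to 14.09 in all other arrays, and E2f3 read 9.35 and 9.10 there, against 8.08 to 8.39 in the other E2f TKO arrays and 8.62 to 8.96 in control. They are kept as labelled, and the main results are also given without them. E2f TKO 1 differs from the other arrays in several gene lists, whose values are given with each list. Against control, E2f1 differed by -0.24 ± 0.11 in E2f TKO and 0.18 ± 0.11 in QKO (log2 ± SE of the limma fit). In the same order E2f2 differed by -0.15 ± 0.13 and 0.15 ± 0.13, and E2f3 by -0.15 ± 0.19 and -0.64 ± 0.19. Myc differed by -1.68 ± 0.16 in Myc KO and -1.76 ± 0.15 in QKO. The loss of E2f1 and E2f2 is thus taken from the labels and not from a lower signal. The interaction of the targeted genes was 0.30 ± 0.15 for E2f1, 0.43 ± 0.18 for E2f2, -0.24 ± 0.27 for E2f3 and -0.47 ± 0.21 for Myc (log2 ± SE of the limma fit, adjusted p = 0.751 to 0.944), and 0.35, 0.45, 0.16 and -0.41 in that order without E2f TKO 2 and 5 (adjusted p = 0.495 to 0.67), and where their probe sets lie relative to the deleted parts was not analysed here.

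Of the 18193 genes, 10 passed the interaction test (0.055%, limma adjusted p under 0.05 after Benjamini-Hochberg), 7 with a positive interaction (0.0385%) and 3 with a negative one (0.0165%). The positive ones were Retnlb, Elobl, Scpep1, 9930104L06Rik, Rims2, Ndufs5 and Cybrd1, and the negative ones Cap1, Amacr and Cebpb. At an unadjusted p under 0.05 there were 1153 genes (6.34%). Without the arrays labelled E2f TKO 2 and 5, 10 genes again passed (0.055%), of which 6 were the same: Retnlb, 9930104L06Rik, Elobl, Scpep1, Ndufs5 and Amacr. These 6 also passed in each of the 18 fits that left out 1 array. The other 4 (Cap1, Rims2, Cebpb and Cybrd1) passed with all 18 arrays and lost the call without E2f TKO 2 and 5, and are given with that value.

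**Figure D1:**
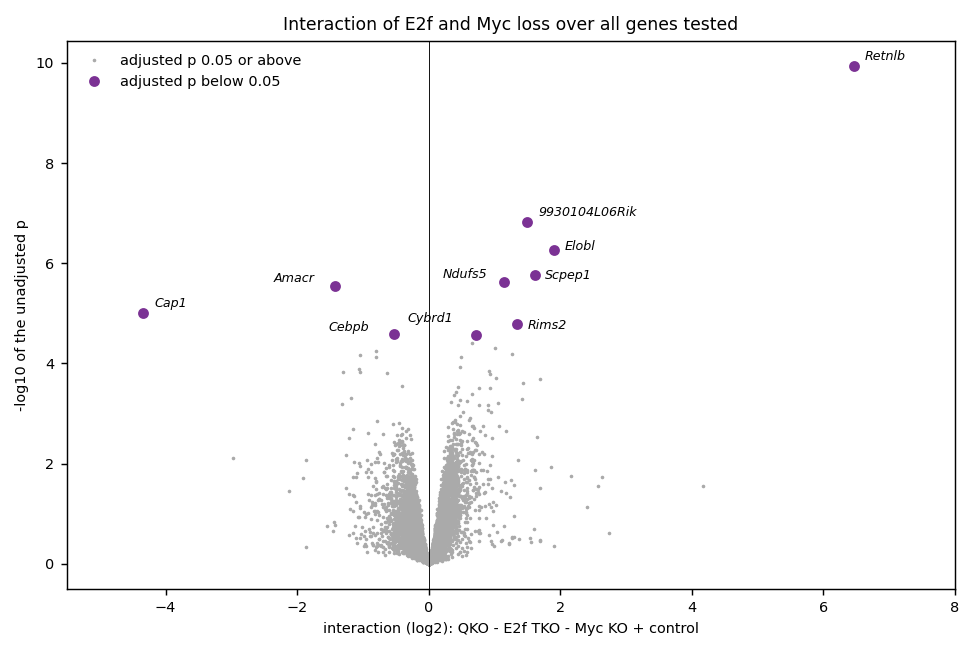
Interaction of E2f1-3 loss and Myc loss for each of 18193 genes (x axis, log2) against the -log10 of its unadjusted p (y axis). The 10 genes past the test are named. Retnlb stands at 6.47 and Cap1 at -4.34, while the middle of all genes lies between quartiles of -0.09 and 0.12.

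By size alone, with 0.5 on the log2 scale taken as a change, the 10 genes follow 5 patterns. In 4 of them (Scpep1, Ndufs5, 9930104L06Rik and Cap1) a change in a single loss was absent in the joint loss. In 3 (Amacr, Rims2 and Cebpb) the signal differed from control in the joint loss only. Retnlb moved opposite to the sum of the single losses, Elobl moved by less than the sum, and Cybrd1 changed by under 0.5 against control in every genotype. Amacr, Rims2 and Cebpb also changed by more than the sum in its direction. They are counted under the joint loss only because neither single loss changed them by 0.5. Where a single loss did change the signal by 0.5 or more, no gene past the test moved by more than the sum in its direction. By size, 442 of all genes had that last pattern.

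**Figure D2:**
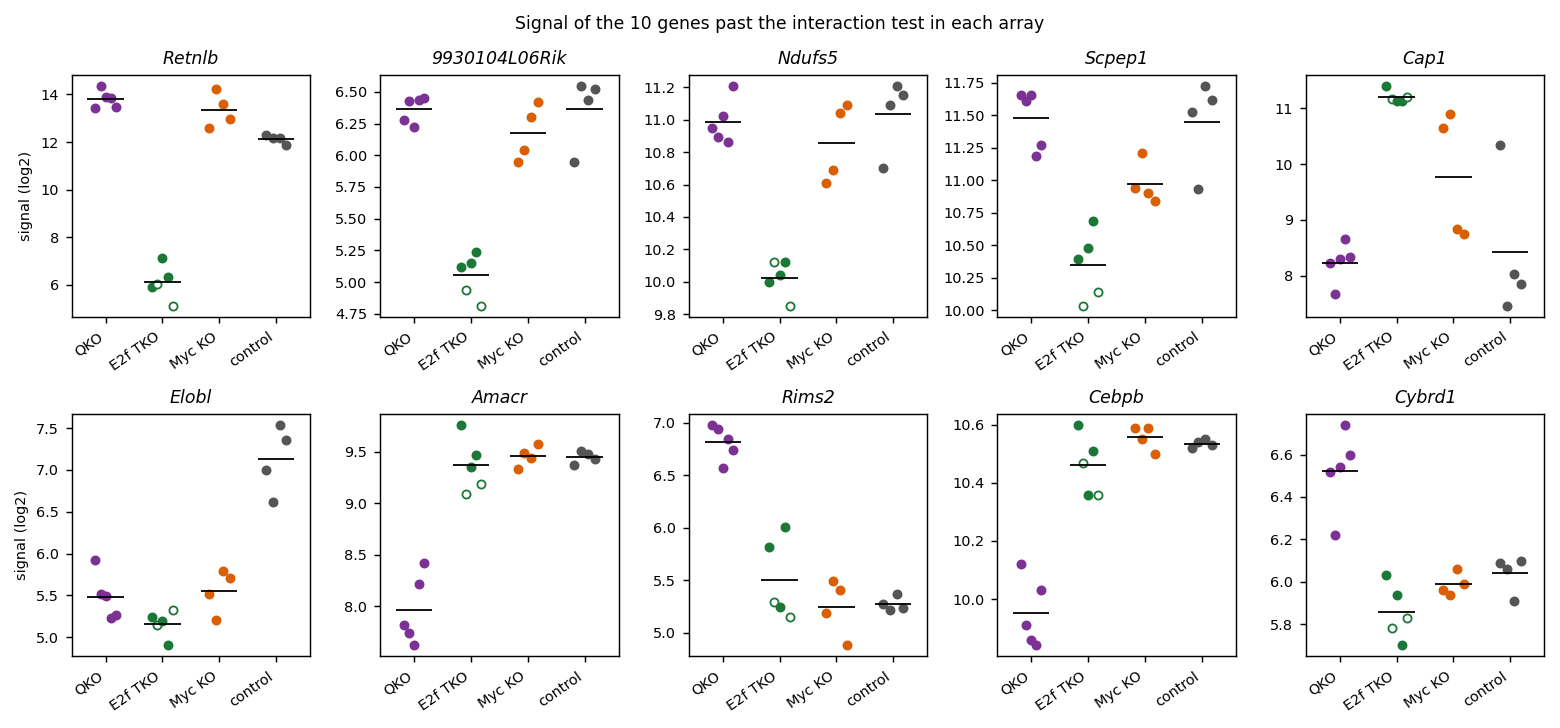
Log2 signal (y axis) of each of the 10 genes in every array, by group (x axis: QKO, E2f TKO, Myc KO, control); points are arrays, bars are group means, and open points are the arrays labelled E2f TKO 2 and 5. In Amacr, Rims2, Cebpb and Cybrd1 the 5 QKO arrays lie apart from the other 13. The 5 E2f TKO arrays, with the open points among them, do so in Retnlb, 9930104L06Rik, Ndufs5, Scpep1 and Cap1.

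Retnlb, which encodes a resistin-like protein secreted by goblet cells and known as an antibacterial and anti-helminth effector in the gut, had the largest interaction. Its log2 signal was 13.44, 14.37, 13.89, 13.84 and 13.47 in the QKO arrays, 5.91, 6.06, 7.13, 6.35 and 5.11 in E2f TKO, 12.59, 14.23, 13.61 and 12.97 in Myc KO, and 12.30, 12.18, 12.17 and 11.86 in control. The E2f TKO arrays, 2 and 5 included, lie below all others and near the array medians. QKO and Myc KO overlap each other, and both lie above every control array. Against control, Retnlb rose by 1.68 ± 0.34 in QKO (limma adjusted p = 0.00161), fell by 6.02 ± 0.34 in E2f TKO (adjusted p = 1.17e-08) and rose by 1.22 ± 0.36 in Myc KO (adjusted p = 0.0422). The sum of the single losses is -4.79, and the interaction is 6.47 ± 0.48 (95% interval 5.46 to 7.48, adjusted p = 2.05e-06). The E2f TKO signals are not shown to be above background, so the differences of QKO and control from them are at best lower bounds. Without E2f TKO 2 and 5 the interaction was 6.12 (adjusted p = 8.37e-06). With every signal under 7.22, the median of all genes and arrays, raised to that floor it was 5.36 (adjusted p = 8.73e-07). On linear signals, where no interaction means that signal differences add, Retnlb did not pass (adjusted p = 0.682).

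No other gene of the goblet cell list passed. Of its 16 measured members, 1 (Retnlb) passed the interaction test, and the median of the list was 0.05, against 0.01 over all genes. Without Retnlb, the mean of the 15 others relative to control was 0.23 to 0.44 in QKO arrays, -0.15 to 0.40 in E2f TKO, -0.01 to 0.27 in Myc KO and -0.09 to 0.12 in control. The main intestinal mucin Muc2 had an interaction of 0.17 ± 0.22, the trefoil factor Tff3 one of 0.01 ± 0.12, and the secreted goblet protein Clca1 one of -0.23 ± 0.27 (limma adjusted p = 0.945 to 0.998). In RNA from whole crypts, fewer cells of a type and less RNA per cell cannot be told apart.

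Scpep1, Ndufs5 and 9930104L06Rik were lower in E2f TKO crypts than in control, and the joint loss left them close to control. Scpep1, a serine carboxypeptidase of lysosomes, had log2 signals of 11.66, 11.61, 11.66, 11.19 and 11.27 in QKO, 10.39, 10.03, 10.48, 10.69 and 10.14 in E2f TKO, 10.94, 11.21, 10.90 and 10.84 in Myc KO, and 11.53, 10.93, 11.73 and 11.62 in control. The E2f TKO arrays lie below all others, and QKO overlaps both Myc KO and control. The difference from control was 0.03 ± 0.16 in QKO, -1.10 ± 0.16 in E2f TKO (limma adjusted p = 0.000724) and -0.48 ± 0.17 in Myc KO (adjusted p = 0.0924), with an interaction of 1.61 ± 0.23 (adjusted p = 0.00798). A second Scpep1 probe set had an interaction of 1.74 ± 0.25 (adjusted p = 0.00728 over all 34945 probe sets), but in QKO it lay 0.69 below control.

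Ndufs5 encodes a subunit of complex I of the respiratory chain. It read 10.95, 10.89, 11.02, 10.86 and 11.21 in QKO, between 9.85 and 10.12 in the 5 E2f TKO arrays, 10.61, 10.69, 11.04 and 11.09 in Myc KO, and 10.70, 11.09, 11.21 and 11.15 in control. The 5 E2f TKO arrays lie below every other array, and the other groups overlap. QKO crypts had 0.963 times the control signal and E2f TKO crypts 0.495 times, and the interaction was 1.14 ± 0.17 (limma adjusted p = 0.00853).

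9930104L06Rik, a gene known only by its RIKEN name, read 6.28, 6.43, 6.22, 6.44 and 6.45 in QKO, 5.12, 4.94, 5.15, 5.24 and 4.81 in E2f TKO, 5.95, 6.04, 6.30 and 6.42 in Myc KO, and 5.95, 6.55, 6.44 and 6.52 in control. The E2f TKO arrays again lie below all others, at signals under the array medians. The interaction was 1.5 ± 0.18 (limma adjusted p = 0.00136). Every signal of this gene lies under the floor of 7.22, so it has no value with that floor. Without E2f TKO 2 and 5 the interactions of these genes were 1.44 for Scpep1, 1.11 for Ndufs5 and 1.38 for 9930104L06Rik (adjusted p = 0.0268, 0.0292 and 0.00628). When E2f TKO 1 was left out as well, an alternative chosen after seeing the data, Scpep1 (1.37) and Ndufs5 (1.09) no longer passed (adjusted p = 0.0863 each).

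The promoter of 9930104L06Rik is shown because it is the one promoter among the 10 genes with a match to a motif searched. RefSeq promoters (build GRCm38.p6, 250 bases before the start of the gene to 50 after it) were given for 7 of the 10 genes. They were searched on both strands for an E2F motif (TTTCCCGC, TTTCGCGC, TTTGCCGC or TTTGGCGC), for the E-box CACGTG bound by Myc and Max, and for a CHR element (TTTGAA or TTCGAA), the mitotic promoter element read by the MuvB complexes. None of the 7 has an E2F motif (0, against 3.38% of 14452 promoters of all genes tested) or an E-box (0, against 9.02%), and 1 has a CHR element (against 15%). It lies at chr4:124936798-124937097, plus strand, and is written 5′ to 3′ on the strand of the gene with the CHR element, here on the other strand, in capitals.
9930104L06Rik: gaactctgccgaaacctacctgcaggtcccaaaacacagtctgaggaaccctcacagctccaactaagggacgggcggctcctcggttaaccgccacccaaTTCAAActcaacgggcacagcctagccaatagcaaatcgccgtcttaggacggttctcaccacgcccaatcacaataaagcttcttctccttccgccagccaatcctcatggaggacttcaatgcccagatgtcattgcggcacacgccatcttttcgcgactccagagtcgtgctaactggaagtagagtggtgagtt

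Cap1, which encodes an actin-binding protein that speeds the turnover of actin filaments, showed the opposite direction, higher in E2f TKO crypts and near the control level in QKO. Its log2 signal was 8.22, 7.66, 8.30, 8.65 and 8.33 in QKO, 11.41, 11.17, 11.14, 11.13 and 11.20 in E2f TKO, 10.64, 10.90, 8.83 and 8.74 in Myc KO, and 10.34, 7.45, 8.02 and 7.85 in control. The E2f TKO arrays lie above all others, and within Myc KO and control the arrays split into a higher and a lower level. Myc KO 1 and 2 and control 1 are at the higher one, so the SD was 0.36 in QKO and 0.11 in E2f TKO, against 1.15 in Myc KO and 1.31 in control. The interaction was -4.34 ± 0.71 (limma adjusted p = 0.0253), and -4.60 ± 0.76 with a second probe set (adjusted p = 0.0195 over all probe sets). Without E2f TKO 2 and 5 it was -4.36 (adjusted p = 0.0763), and 8 of the 18 fits that left out 1 array lost the call (adjusted p = 0.0509 to 0.0983).

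Elobl, named as a relative of elongin B, was lower in every knockout by a similar amount. It read 5.92, 5.51, 5.49, 5.23 and 5.26 in QKO, 5.24, 5.15, 5.19, 4.90 and 5.32 in E2f TKO, 5.52, 5.20, 5.79 and 5.71 in Myc KO, and 7.0, 6.62, 7.54 and 7.36 in control. The 3 knockout groups overlap one another and all lie below control. The difference from control was -1.65 ± 0.17 in QKO, -1.97 ± 0.17 in E2f TKO and -1.58 ± 0.18 in Myc KO (limma adjusted p = 3.99e-06 to 0.000134), and the interaction was 1.90 ± 0.25 (adjusted p = 0.00326). All knockout signals lie under the array medians and are not shown to be above background. With the floor of 7.22, which lies within the control arrays' own range, the interaction was 0.12 (adjusted p = 0.873).

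Amacr, Rims2 and Cebpb differed from control in the joint loss only. Amacr encodes a racemase that prepares branched-chain fatty acids and bile acid intermediates for oxidation. It read 7.82, 7.74, 7.62, 8.22 and 8.42 in QKO, 9.76, 9.09, 9.35, 9.47 and 9.19 in E2f TKO, 9.33, 9.49, 9.44 and 9.57 in Myc KO, and 9.37, 9.51, 9.48 and 9.43 in control. All 5 QKO arrays lie below the other 13, which overlap one another. Amacr fell by 1.49 ± 0.15 in QKO (limma adjusted p = 4.22e-06), to 0.357 times the control signal, against differences of -0.08 ± 0.15 in E2f TKO and 0.01 ± 0.16 in Myc KO. The interaction was -1.42 ± 0.21 (95% interval -1.86 to -0.98, adjusted p = 0.00861) and -1.57 without E2f TKO 2 and 5 (adjusted p = 0.00628). Amacr is the one gene of the 10 that passed in all 14 other alternatives run for it, linear signals included (adjusted p = 0.0471).

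Cebpb encodes a basic leucine zipper transcription factor of inflammatory and stress responses. It read 10.12, 9.91, 9.86, 9.84 and 10.03 in QKO, 10.60, 10.47, 10.36, 10.51 and 10.36 in E2f TKO, 10.59, 10.55, 10.59 and 10.50 in Myc KO, and 10.52, 10.54, 10.55 and 10.53 in control. The QKO arrays lie below all others, and the single losses overlap control. Against control Cebpb differed by -0.58 ± 0.07 in QKO (limma adjusted p = 1.35e-05), -0.07 ± 0.07 in E2f TKO and 0.02 ± 0.07 in Myc KO. The interaction of -0.53 ± 0.09 was close to the threshold (adjusted p = 0.0484). It was -0.56 without E2f TKO 2 and 5 (adjusted p = 0.0763), and a second probe set had -0.40 (adjusted p = 0.652 over all probe sets).

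Rims2, known from nerve terminals as a scaffold of vesicle release, read 6.98, 6.94, 6.57, 6.85 and 6.74 in QKO, 5.82, 5.29, 5.25, 6.01 and 5.15 in E2f TKO, 5.19, 5.49, 5.41 and 4.88 in Myc KO, and 5.27, 5.22, 5.37 and 5.24 in control. QKO lies above all others, but each signal is under the floor of 7.22. Rims2 rose by 1.54 ± 0.16 in QKO (limma adjusted p = 6.63e-06), and its interaction was 1.34 ± 0.23 (adjusted p = 0.0373), or 1.15 without E2f TKO 2 and 5 (adjusted p = 0.0806). Its 4 other probe sets had interactions of 0.86, 0.67, 0.11 and 0.09, none of which passed.

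Cybrd1, the ferric reductase of the duodenal brush border, read 6.52, 6.22, 6.54, 6.74 and 6.60 in QKO, 6.03, 5.78, 5.94, 5.70 and 5.83 in E2f TKO, 5.96, 5.94, 6.06 and 5.99 in Myc KO, and 6.09, 6.06, 5.91 and 6.10 in control. QKO lies above all other arrays, again at dim signals. The interaction was 0.72 ± 0.13 (limma adjusted p = 0.0484) and 0.68 without E2f TKO 2 and 5 (adjusted p = 0.123). A second probe set had 1.24 (adjusted p = 0.504 over all probe sets).

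Without E2f TKO 2 and 5, 4 further genes passed, of which 3 are described here, chosen after their values were seen. Gclc, the catalytic subunit of the enzyme that starts glutathione synthesis, read 10.09, 10.15, 10.19, 9.69 and 10.20 in QKO, 11.31, 9.68, 10.46, 10.78 and 10.01 in E2f TKO, 11.42, 11.37, 11.52 and 11.19 in Myc KO, and 10.87, 10.09, 10.38 and 10.86 in control. All Myc KO arrays lie above control and above every QKO array, and the E2f TKO arrays spread from 9.68 to 11.31, with arrays 2 and 5 lowest. Its interaction was -1.61 without those arrays (limma adjusted p = 0.0437) and -1.21 ± 0.35 with them (adjusted p = 0.577). Abcc4, an exporter of organic anions and cyclic nucleotides, had -1.45 without them (adjusted p = 0.00136) and -0.95 ± 0.35 with them, and its signal was 6.47 to 6.70 in QKO, 6.0 to 7.76 in E2f TKO, 7.24 to 7.47 in Myc KO and 6.43 to 6.83 in control. Fam83e had 1.32 without them (adjusted p = 0.0268).

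**Figure D3:**
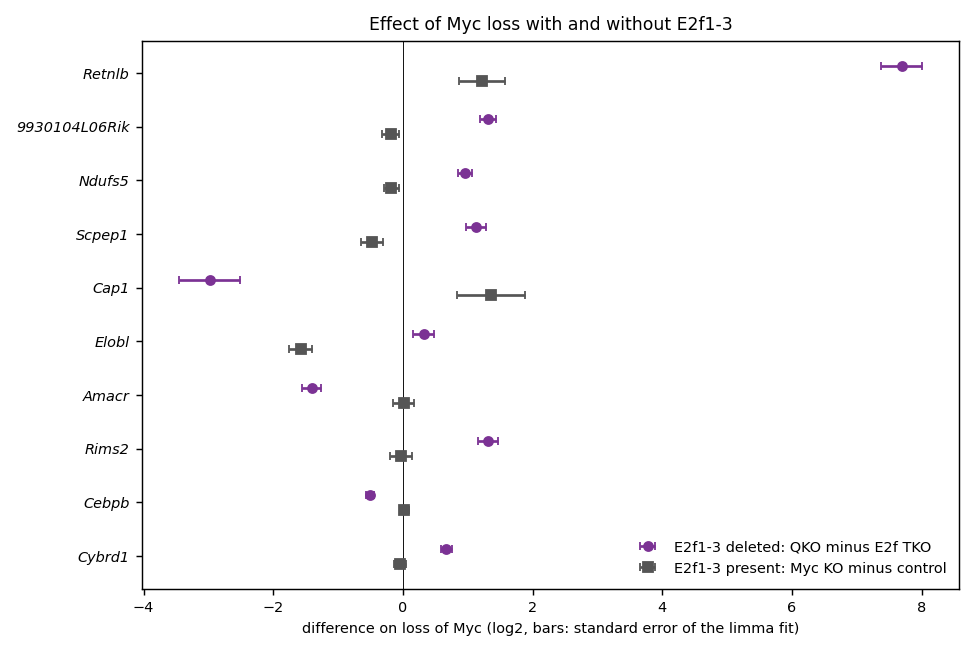
Log2 difference on loss of Myc (x axis) for each of the 10 genes (y axis), where E2f1-3 were deleted (QKO minus E2f TKO, circles) and where they were present (Myc KO minus control, squares); bars are the standard error of the limma fit. Retnlb stands at 7.69 with E2f1-3 deleted and 1.22 with them present, Cap1 at -2.98 and 1.36, and Amacr at -1.41 and 0.01.

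Several of the 10 genes lie close together. Cap1, Ndufs5 and 9930104L06Rik lie on chromosome 4 within 5 Mb of one another and within 20 Mb of E2f2, and Cebpb lies on chromosome 2 within 20 Mb of E2f1. Thus 4 of the 10 lie within 20 Mb of a deleted gene, as do 1469 of 18029 genes with a position (8.15%). Elobl and Scpep1 are close neighbours on chromosome 11. Their promoters lie at chr11:88966882-88967181 and chr11:88955393-88955692, both on the minus strand. The other 6 lie outside that distance, but Amacr and Rims2 are on chromosome 15 with Myc, and Cybrd1 is on chromosome 2 with E2f1. Whether position near a targeted locus has a part in these differences was not tested.

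Probe sets that were not the brightest of their gene add genes to these. With each of 34945 probe sets tested, 27 passed, for 22 genes, of which 12 are outside the 10. Those named here were chosen after their values were seen. Rhbdl2, a rhomboid protease gene that also lies within 5 Mb of Ndufs5, had 1.17 and 1.49 in dim probe sets and 0.90 in its brightest one (limma adjusted p = 0.015, 0.0232 and 0.274 over all probe sets). Gna13, a G protein subunit gene, had -0.81 and -0.80 in a pair of probe sets (adjusted p = 0.00728 and 0.0057) and -0.27 in its brightest (adjusted p = 0.847). Snx5, an endosomal sorting gene, had 0.96 and 1.93 in a pair (adjusted p = 0.000604 and 0.00728) and -0.08 in its brightest (adjusted p = 0.957). Sub1 and Zfr, within 5 Mb of Amacr on chromosome 15, had a probe set each that passed, at -1.14 and -0.65, and 0.09 and -0.14 in their brightest. Probe sets of 1 gene thus differed in their interaction, and the transcripts they read were not analysed here.

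Most genes showed no interaction that passed, and the width of the intervals limits what that says. Over all genes the median interaction was 0.01, with a median SE of 0.14 and a median distance of 0.29 between the estimate and each end of its 95% interval. The interval lay within ±0.5 for 12468 genes (68.5%). Single differences were called more often: 4888 genes passed in QKO against control (26.9%), 527 in E2f TKO (2.9%) and 1511 in Myc KO (8.31%), and 3100 passed in QKO against E2f TKO (17%) and 1398 in QKO against Myc KO (7.68%). The E2f TKO counts depend on arrays 2 and 5. Without them 609 genes rose and 713 fell in E2f TKO against control, where 305 rose and 222 fell with all arrays. In Myc KO 838 rose and 1051 fell in that fit. In QKO 1193 were then higher and 962 lower than in E2f TKO, against 1653 and 1447 with all arrays. Of the 4888 genes called in QKO against control, 6 passed the interaction test and 3083 (63.1%) had an interval within ±0.5. Of the 383 that also differed by 2-fold or more, 4 passed the interaction test, 21 had an interval within ±0.5 and 362 had one reaching past it. Simulated data had 1 spread per gene in all groups, and QKO means at the sum of the single losses except in 200 changed genes. There the interaction test recovered 28.6% of differences of 0.5, 92.6% of those of 1 and all of those of 2 (100%). It made 145 calls, against 10 in the data, and the Benjamini-Hochberg threshold is easier to pass with more calls. The recovery in the data can therefore be lower.

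Of 36 gene lists, 34 had no member past the interaction test, and 8 of the 10 genes belong to none of them. They are described by their counts and medians, beside those of all genes.

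The S phase genes lay higher in the joint loss than the single losses add up to, though no member passed. Of 68 measured genes of the G1/S and DNA replication list, 58 (85.3%) had an interaction above 0, against 53.5% of all genes, and the median was 0.31, against 0.01. Against control, 36 rose and 6 fell in QKO (background 14.3% and 12.6%), 12 rose and 2 fell in E2f TKO (background 1.68% and 1.22%), and 0 rose and 1 fell in Myc KO (background 3.59% and 4.72%). Against Myc KO, 38 were higher and 1 lower in QKO (background 4.6% and 3.09%), and against E2f TKO, 13 were higher and 5 lower in QKO (background 9.09% and 7.95%). The list mean relative to control was 0.12, 0.29, 0.26, 0.69 and 0.50 in the QKO arrays, -0.20, 0.27, 0.30, 0.44 and 0.33 in E2f TKO, -0.14, -0.31, -0.04 and 0.03 in Myc KO, and -0.13, 0.00, -0.02 and 0.15 in control. QKO and E2f TKO overlap, and E2f TKO 1 is the one E2f TKO array under 0. Without E2f TKO 2 and 5 the median stayed at 0.31, without E2f TKO 1 alone it was 0.19, and without E2f TKO 1, 2 and 5 it was 0.15.

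Among its members, named after their values were seen, Gins2, a part of the replicative helicase, differed from control by 1.40 ± 0.17 in QKO, 0.64 ± 0.17 in E2f TKO and 0.07 ± 0.17 in Myc KO. Its interaction was 0.69 ± 0.23 (limma adjusted p = 0.662). Pold1, the catalytic subunit of DNA polymerase delta, differed by 0.81 ± 0.15, 0.20 ± 0.15 and -0.05 ± 0.16 in the same order, with an interaction of 0.66 ± 0.22 (adjusted p = 0.653). Timeless, which steadies the replication fork, had 0.67 ± 0.23 (adjusted p = 0.666), and Mcm7, a subunit of the helicase, 0.55 ± 0.20 (adjusted p = 0.695). Ccne2, encoding cyclin E2, lay at the other end with -0.49 ± 0.29 (adjusted p = 0.859). The recombination and Fanconi list resembled this one, with 25 of 29 members above 0 and a median of 0.28. That was 0.31 without E2f TKO 2 and 5, and 0.16 without E2f TKO 1, with 20 of 29 above 0. Its highest member was Rad54l, a recombination ATPase, at 0.68 ± 0.25 (adjusted p = 0.695).

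The mitotic genes lay lower. Of 87 measured members of the G2/M and mitosis list, 19 (21.8%) had an interaction above 0 and the median was -0.21. Against control 49 fell and 1 rose in QKO, 3 fell and 0 rose in E2f TKO, and 1 fell and 1 rose in Myc KO, beside the background shares given for the replication list. In QKO 36 were lower and 1 higher than in Myc KO, and 17 lower and 0 higher than in E2f TKO. Without E2f TKO 2 and 5, 29 fell and 0 rose in E2f TKO against control (713 and 609 of all 18193 genes). In that fit 5 were lower and 1 higher in QKO than in E2f TKO (962 and 1193 of all genes). The list mean was -0.70, -1.03, -0.89, -0.41 and -0.58 in QKO, -1.13, 0.01, -0.38, -0.27 and -0.08 in E2f TKO, -0.18, -0.29, -0.04 and 0.07 in Myc KO, and -0.11, -0.09, 0.11 and 0.09 in control. E2f TKO 1 is lower than every QKO array, and E2f TKO 2 and 5 are at the control level. The median moved with these arrays: it was 0.02 without E2f TKO 2 and 5, -0.40 without E2f TKO 1 and -0.25 without all 3. Nusap1 and Tpx2, genes of spindle assembly, had interactions of -1.13 ± 0.39 and -0.92 ± 0.35, and Ccnf, encoding cyclin F, one of -1.06 ± 0.37 (limma adjusted p = 0.666 to 0.714, named after their values were seen). Cenph lay at the other end of the list with 0.62 ± 0.24 (adjusted p = 0.714). Without E2f TKO 2 and 5 the values were -0.73 for Nusap1, -0.63 for Tpx2, -0.77 for Ccnf and 0.6 for Cenph (adjusted p = 0.497 to 0.565).

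Promoters of both lists are shown because the 3 motifs are spread unequally between them. An E2F motif is in 18 of 56 G1/S promoters (32.1%), 11% of G2/M promoters and 3.38% of all. A CHR element is in 52 of 73 G2/M promoters (71.2%), 19.6% of G1/S promoters and 15% of all. The E-box is in 10.7% of G1/S, 5.48% of G2/M and 9.02% of all promoters. These shares describe the lists and not their interaction, and a match is a run of letters, not a bound site. The examples printed are Pold1 (chr7:44548766-44549065, minus strand) and Mcm7 (chr5:138171834-138172133, minus strand), with the E2F motif in capitals, and Ccnf (chr17:24251360-24251659, minus strand) and Hmmr (chr11:40733388-40733687, minus strand), a spindle gene with an interaction of -0.87 ± 0.32, with the CHR element in capitals. All are from RefSeq on GRCm38.p6, 5′ to 3′ on the strand of the gene.
Pold1: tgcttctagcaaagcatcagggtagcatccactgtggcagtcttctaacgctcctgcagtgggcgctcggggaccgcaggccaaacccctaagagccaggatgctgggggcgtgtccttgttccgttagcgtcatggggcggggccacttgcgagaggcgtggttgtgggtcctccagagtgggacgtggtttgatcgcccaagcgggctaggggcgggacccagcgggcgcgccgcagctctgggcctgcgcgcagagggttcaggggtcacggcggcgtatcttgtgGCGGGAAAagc
Mcm7: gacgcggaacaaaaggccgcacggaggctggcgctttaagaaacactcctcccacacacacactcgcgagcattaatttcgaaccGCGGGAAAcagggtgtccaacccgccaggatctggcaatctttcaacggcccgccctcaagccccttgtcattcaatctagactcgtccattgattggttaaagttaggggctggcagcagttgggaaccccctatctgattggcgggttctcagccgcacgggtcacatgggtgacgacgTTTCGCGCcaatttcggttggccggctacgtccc
Ccnf: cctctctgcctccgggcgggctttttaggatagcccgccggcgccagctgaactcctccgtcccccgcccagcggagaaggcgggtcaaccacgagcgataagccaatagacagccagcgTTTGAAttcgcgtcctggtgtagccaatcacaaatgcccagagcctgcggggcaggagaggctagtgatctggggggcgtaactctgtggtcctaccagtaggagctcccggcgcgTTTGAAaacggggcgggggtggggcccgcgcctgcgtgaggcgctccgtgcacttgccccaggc
Hmmr: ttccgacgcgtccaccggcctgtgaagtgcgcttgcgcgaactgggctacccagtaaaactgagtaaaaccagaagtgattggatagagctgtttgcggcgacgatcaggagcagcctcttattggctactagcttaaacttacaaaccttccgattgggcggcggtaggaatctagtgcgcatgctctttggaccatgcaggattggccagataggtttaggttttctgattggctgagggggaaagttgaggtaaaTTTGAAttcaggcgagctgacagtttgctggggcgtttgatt

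**Figure D4:**
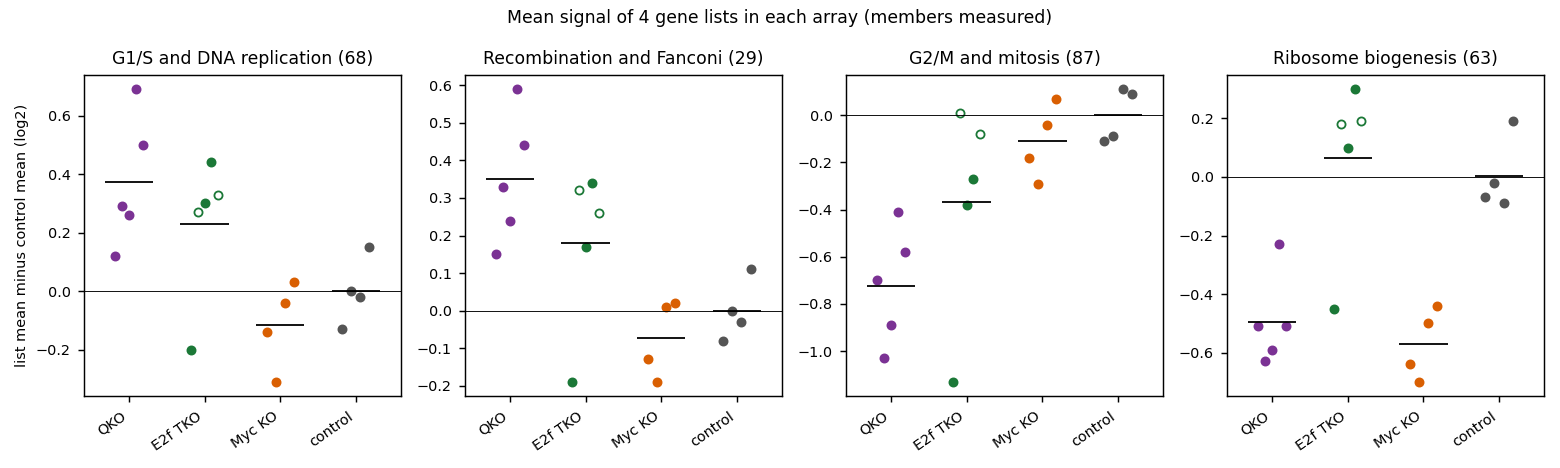
Mean log2 signal of 4 gene lists in every array, relative to the control mean (y axis), by group (x axis: QKO, E2f TKO, Myc KO, control); points are arrays, bars are group means, and open points are the arrays labelled E2f TKO 2 and 5. For G2/M and mitosis, E2f TKO spans -1.13 to 0.01 and QKO -1.03 to -0.41. For ribosome biogenesis, QKO (-0.63 to -0.23) and Myc KO (-0.70 to -0.44) overlap.

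Genes of ribosome production, the best known Myc programme, changed with Myc in either E2f state. Of 63 measured genes of ribosome biogenesis, 42 fell in QKO against control (background 12.6%), 0 in E2f TKO (1.22%) and 39 in Myc KO (4.72%), and 46 fell in QKO against E2f TKO (background 7.95%). No member passed the interaction test, 34 had an interaction above 0 and the median was 0.02, with 33 intervals within ±0.5. Npm1, which encodes nucleophosmin, differed from control by -0.90 ± 0.16 in QKO, -0.02 ± 0.16 in E2f TKO and -1.07 ± 0.16 in Myc KO, with an interaction of 0.19 (95% interval -0.27 to 0.65). Of 43 cytosolic ribosomal protein genes, 28 fell in QKO (background 12.6%) and 29 in Myc KO (4.72%), and 41 had an interaction above 0. The median was 0.11, or 0.18 without E2f TKO 2 and 5 and 0.05 without E2f TKO 1, with 36 intervals within ±0.5. Of 18 aminoacyl-tRNA synthetase genes, 16 had an interval within ±0.5, around a median of -0.01. The median of ribosome biogenesis was 0.10 without E2f TKO 2 and 5 and -0.11 without E2f TKO 1, whose list mean was -0.45, against 0.10 to 0.30 in the other E2f TKO arrays.

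The secretory and stem cell lists had no member past the test except Retnlb. All 16 tuft cell genes lay above 0, from 0.01 (Il17rb) to 0.40 (Avil), with a median of 0.14 (14 above 0 and a median of 0.12 without E2f TKO 2 and 5). Of 16 crypt stem cell genes 13 lay above 0 (median 0.16, or 0.37 without E2f TKO 2 and 5 and -0.03 without E2f TKO 1). Of 26 enteroendocrine genes, 15 rose in QKO (background 14.3%), 5 in E2f TKO (1.68%) and 2 in Myc KO (3.59%), and the median differences from control were 0.57, 0.36 and 0.29 in that order, with a median interaction of -0.07.

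The lists of MHC class II, T cell, enterocyte and mast cell genes were among those with negative medians, and no member passed. Others were interferon response (-0.30, 5 of 32 above 0), unfolded protein response (-0.22, 1 of 18) and fibroblasts (-0.20, 5 of 17), again with no member past the test. The interferon list mean relative to control was 1.34 in Myc KO 4, against -0.16 to 0.34 in the other Myc KO arrays. The unfolded protein response median was -0.19 without E2f TKO 2 and 5 and -0.30 without E2f TKO 1. The MHC class II list (6 genes, none above 0) had a median of -1.06, or -1.82 without E2f TKO 2 and 5 and -0.47 without E2f TKO 1. Its mean relative to control was 0.46 to 1.35 in QKO, -0.47 to 3.33 in E2f TKO (the highest in array 1), -0.30 to 1.18 in Myc KO and -0.63 to 0.57 in control. The T cell list (17 genes) had -0.36, or -0.78 without E2f TKO 2 and 5 and -0.14 without E2f TKO 1. The enterocyte list (27 genes) had -0.23, or -0.59 without E2f TKO 2 and 5, and without E2f TKO 1 its median was -0.01, with 13 of 27 genes above 0. The macrophage list (15 genes) had 0.05 and the list of B and plasma cells (11 genes) -0.02. For the T cell and enterocyte lists, E2f TKO 1 has the highest mean of all arrays, 1.21 and 1.01 above control in that order. The mast cell list (11 genes, median -0.30, or -0.42 without E2f TKO 2 and 5) had means of -0.39 to -0.26 in QKO, -0.62 to -0.22 in E2f TKO, 0.10 to 0.76 in Myc KO and -0.11 to 0.08 in control. In that list the protease gene Mcpt1 differed from control by -1.85 ± 0.38 in QKO, -2.06 ± 0.38 in E2f TKO and 1.46 ± 0.40 in Myc KO, with an interaction of -1.25 ± 0.53 (limma adjusted p = 0.734). Mcpt1 read 5.49 to 5.78 in QKO and 4.95 to 6.15 in E2f TKO, near or under the array medians and not shown to be above background. The mean signal of the mast cell list was 5.42 to 5.55 in QKO and 5.18 to 5.58 in E2f TKO. The part of the cells of all these lists in any other result was not tested.

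**Figure D5:**
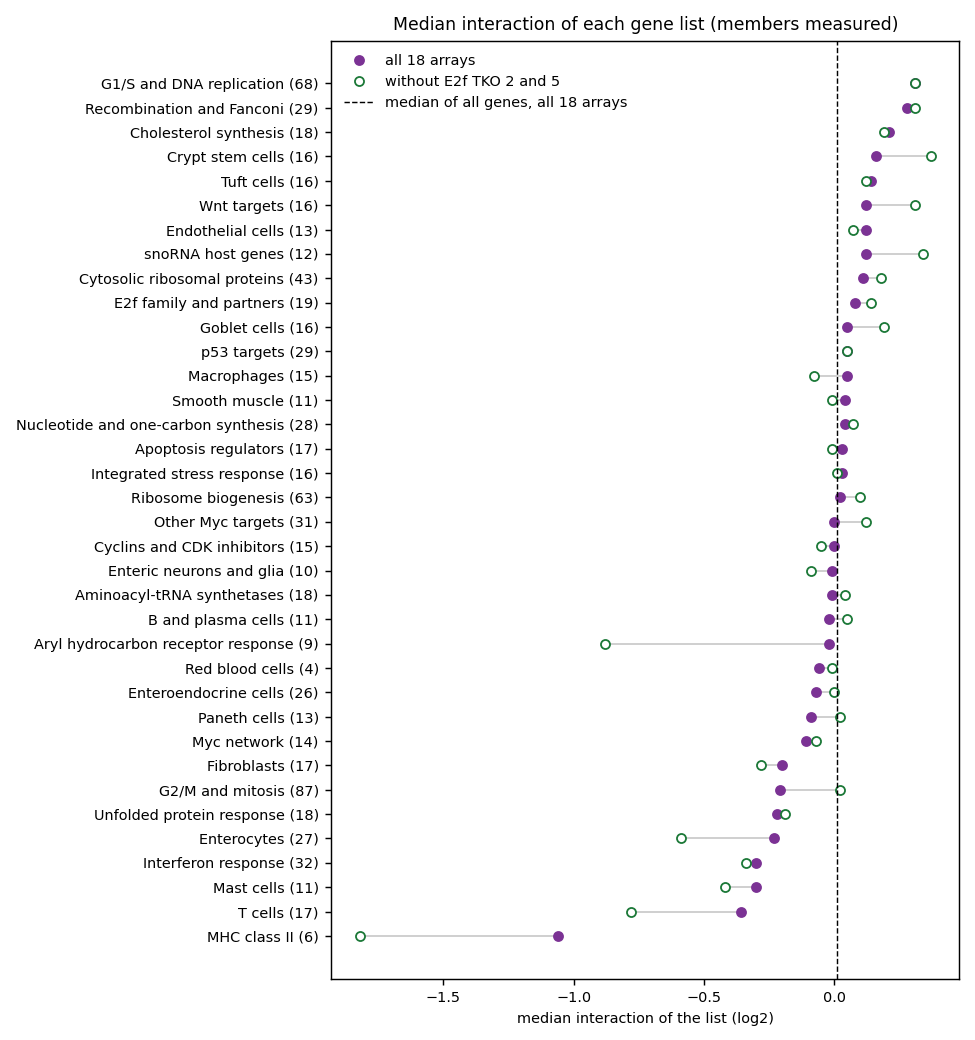
Median interaction (x axis, log2) of each of 36 gene lists (y axis, with the number of members measured), with all 18 arrays (filled) and without E2f TKO 2 and 5 (open); the dashed line is the median of all genes. G1/S and DNA replication is highest with all arrays at 0.31 and MHC class II lowest at -1.06, and the G2/M list stands at -0.21 with all arrays and 0.02 without those 2.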

How the data were processed

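Total RNA from crypts was labelled with biotin and hybridised to Affymetrix 3′ arrays of 45101 probe sets, per the labels' protocols and the platform annotation. The authors deposited log2 signals (2.29 to 14.81). The log2 scale was read from the values; how arrays were normalized or probes summarised is not given in those sources. Groups and replicate numbers were taken from the titles, and all 18 columns were used (0 left over). Of the probe sets 34945 have 1 symbol, covering 18193 genes, and 64 are controls.

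The interaction and the differences between groups were estimated by limma (version 3.58.1, under R 4.3.3) in 1 moderated fit of 4 group means to 18 arrays, with no covariate, two-sided, adjusted by Benjamini-Hochberg over all genes, with a threshold of 0.05. Intervals are 95%, on 17.5 degrees of freedom. Dim probe sets were kept, and the number of arrays limits the precision. Genes named by rule were the targeted genes with Cyp1a1, the genes past the test with all arrays and without E2f TKO 2 and 5 (up to 10 each way) or with all arrays only (up to 5 each way), the 3 of smallest p in each pattern, and up to 4 members of each list with a member past the test. Any other gene was named after its values were seen, and 1 gene past the test without E2f TKO 2 and 5 is not reported here. The members, gene lists and the set of arrays left out were chosen with earlier results of these data known. Names and neighbouring genes come from RefSeq on GRCm38.p6, where 18032 genes were found. The build of the deposited annotation was not used for coordinates.

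The script was tested on simulated data in which 200 of 18193 genes were changed, and made 145 calls, 5 of them false. Alternatives were quantile normalization, a filter on dim genes, a floor at the median, other choices of probe set, linear signals, other spread models, the replicate number as a block, Xist as a covariate, leaving out arrays, and leaving out genes near a deleted gene. Combinations without E2f TKO 2 and 5, and the fits without E2f TKO 1 as well, were added after seeing the data.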

Additional observations from a re-analysis of the deposited data

Results flagged for a closer look

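The effect of Myc loss differed between E2f states by a test of that difference, the interaction, in 10 genes. Its values were 6.47 for Retnlb, 1.90 for Elobl, 1.61 for Scpep1, 1.5 for 9930104L06Rik, 1.34 for Rims2, 1.14 for Ndufs5 and 0.72 for Cybrd1, and -4.34 for Cap1, -1.42 for Amacr and -0.53 for Cebpb (log2). Cap1 in E2f TKO 1 stood apart from its group as the highest of the 5 arrays, at 11.41. Slc7a11, a cystine transporter gene of the integrated stress response list, stood apart in control 4 as the lowest of the 4 arrays, at 3.71. Of 84 groups examined (21 genes in 4 groups each), 2 had such a value, and chance flags about 1 in 20 groups.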

How the results depend on the processing

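Against 10 genes past the interaction test, 6 passed among genes above the median level, 6 without E2f TKO 1, 2 and 5 (4 of them among the 10), 6 of the 10 without those within 20 Mb of a deleted gene, 2 on linear signals without E2f TKO 2 and 5 (1 among the 10, Amacr), and 22 genes with every probe set tested. Leaving out 1 array at a time gave 6 to 14 genes, with 6 without control 2, 3 or 4 or E2f TKO 2, and 14 without QKO 5. Causes were not tested. The other alternatives gave 7 to 14. None of the 10 genes reversed its sign in any alternative that gave it a value. The floor of 7.22 gave 10 genes (6 of the 10) and linear signals 11 (8 of the 10). Without 1 array the call was lost in 8 of 18 fits for Cap1, 13 for Rims2 (adjusted p = 0.0529 to 0.12), 14 for Cebpb (0.0575 to 0.147) and 16 for Cybrd1 (0.0529 to 0.166), all by limma. The deviations of same-numbered arrays of different groups correlated at -0.16 to 0.35 (25 pairs, median 0.15), against -0.62 to 0.43 for other pairs (96, median -0.04), and 8 of 18 arrays correlated best with their own number. Not every pair passed 0.1, so the numbers were not taken to pair the samples. Whether some same-numbered arrays share a batch was not tested. The replicate number as a block gave 11 genes, 7 of them among the 10, and Rims2, Cebpb and Cybrd1 lost the call (adjusted p = 0.081, 0.081 and 0.0892). Signals near or under the array medians of 6.14 to 6.26 limit 9930104L06Rik, Elobl, Rims2, Cybrd1 and the E2f TKO value of Retnlb. They also limit the tuft cell and mast cell lists.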
